A study of Mus musculus with 8 samples.

Results

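The mitochondrial ribosomal protein genes are the nuclear genes with symbols that start with Mrpl or Mrps and then a digit. They were followed on Illumina arrays of the hypothalamus of male mice aged 13 weeks, 4 labelled Bgn_KO and 4 WT, all given as C57BL/6. Bgn_KO mice carry a disrupted Bgn gene, which encodes the matrix proteoglycan biglycan, and the sources used here do not describe the allele. Each array stands for 1 animal. Members were the probes annotated to such a gene whose detection p-value, the chance that a negative control is as bright, was under 0.05 on at least 4 of the 8 arrays. This left 98 of 110 such probes (89.1%), from 71 of 76 genes, among 14190 tested of 25697 probes in all (55.2%).

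Mitochondria keep a small genome of their own that encodes core subunits of the respiratory chain and of ATP synthase, and a dedicated ribosome inside the organelle translates these messages. The ribosome has a small subunit, which holds the mRNA and decodes it, and a large subunit, which joins the amino acids and feeds the new chain to the inner membrane. All of its proteins are encoded in the nucleus, made in the cytosol and imported. Some have counterparts in bacterial ribosomes and others are found only in mitochondria. In the brain, neurons draw heavily on the respiration that these proteins make possible.

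The arrays had a median deposited signal between 180 and 225, and 53.8% to 56.4% of all probes were above background on each. Values here are log2 signals after background correction and quantile normalization, and differences are Bgn_KO minus WT on that scale. The targeted gene did not separate the groups: the Bgn probe was at 8.94, 9.01, 8.99 and 8.79 on the Bgn_KO arrays, against 8.86, 10.44, 10.14 and 9.53 on the WT arrays in order of replicate (-0.81, limma adjusted p = 0.390). For Bgn, the array labelled WT replicate 1 thus fell inside the Bgn_KO range, and whether the probe lies in the disrupted part is not known here. Markers of other tissue stood out on single arrays: 4 cortical markers averaged 1.79 above their mean on Bgn_KO replicate 4, and 3 muscle markers 6.09 above on WT replicate 4. A pair of pituitary markers was 2.69 above on Bgn_KO replicate 1 and 2.48 above on WT replicate 2. Over 5 meningeal fibroblast markers the shift was 0.37, -0.67, -1.03 and 0.62 on the Bgn_KO arrays, against -0.70, 1.04, 0.55 and -0.18 on the WT arrays. The WT arrays stood in the same order for these markers as for Bgn, with replicate 1 lowest in both. The Bgn_KO arrays did not, with replicate 4 highest for these markers (0.62) and lowest for Bgn (8.79). The part of such tissue in the Bgn values was not tested. Of 13 hypothalamic markers 10 were tested, and Sim1, Nr5a1 and Crh were not detected on enough arrays. Their mean shift was 0.12, -0.08, -0.02 and -0.31 on the Bgn_KO arrays, against 0.13, 0.03, 0.14 and -0.01 on the WT arrays. Hcrt (-0.45, limma adjusted p = 0.149) and Ghrh (-0.37, limma adjusted p = 0.371) were lower in Bgn_KO without overlap. For the other tested hypothalamic markers the groups overlapped, and the part of this shift in the results was not tested. Lower without overlap were also Cldn11 of oligodendrocytes (-0.45, limma adjusted p = 0.154) and Tmem119 of microglia (-0.39, limma adjusted p = 0.174). Rbfox3 of neurons was higher without overlap (0.40, limma adjusted p = 0.313), and the part of these markers in the results was not tested. Over 5 oligodendrocyte markers the mean shift was between -0.30 and -0.11 on the Bgn_KO arrays and between -0.11 and 0.41 on the WT arrays, and its part in the results was not tested. In a bulk tissue, fewer cells of a type and less RNA per cell cannot be told apart.

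Mrps27 was the only mitochondrial ribosomal protein gene that differed between the genotypes by the test over all probes, and it was lower in Bgn_KO. It encodes a protein of the small subunit with no bacterial counterpart, a pentatricopeptide repeat protein that in human cells binds mitochondrial RNA and is needed for normal mitochondrial translation. The gene lies on chromosome 13, and the array carried 1 probe for it (ILMN_2588199). Mrps27 read 6.10, 6.44, 6.21 and 6.21 on the Bgn_KO arrays, against 8.23, 8.54, 8.58 and 8.53 on the WT arrays. Each Bgn_KO array was thus far below each WT array, and the array labelled WT replicate 1, which resembled the Bgn_KO arrays for Bgn, was with the other WT arrays for Mrps27. The means were 6.24 ± 0.15 in Bgn_KO and 8.47 ± 0.16 in WT (SD, n = 4 each). The log2 difference was -2.23 (SE 0.11, 95% interval -2.48 to -1.97), which is 4.68-fold lower in Bgn_KO (3.92 to 5.59; limma adjusted p = 3.43e-05). The two-sided exact permutation p over the arrays was 0.0286, the smallest that 4 against 4 arrays can give.

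The size of the Mrps27 difference depends on how the background is treated, while its call does not. Before any correction or scaling, the probe read 215, 209, 199 and 238 on the Bgn_KO arrays, against 534, 489, 573 and 531 on the WT arrays. The Bgn_KO readings were close to the median of all probes on those arrays, which was 180 to 213, yet above background on all 4 of them (detection p-value at most 0.00251). Without background correction the gene was 2.16-fold lower (log2 difference -1.11, limma adjusted p = 2.21e-05). The values that the authors processed gave 2.19-fold lower (-1.13, limma adjusted p = 2.12e-05). Leaving out any single array gave differences between -2.31 and -2.18, with limma adjusted p of at most 3.48e-04. Without both replicates 4, the arrays with the cortical and the muscle transcripts, the difference was -2.20 (limma adjusted p = 0.00127).

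**Figure D1:**
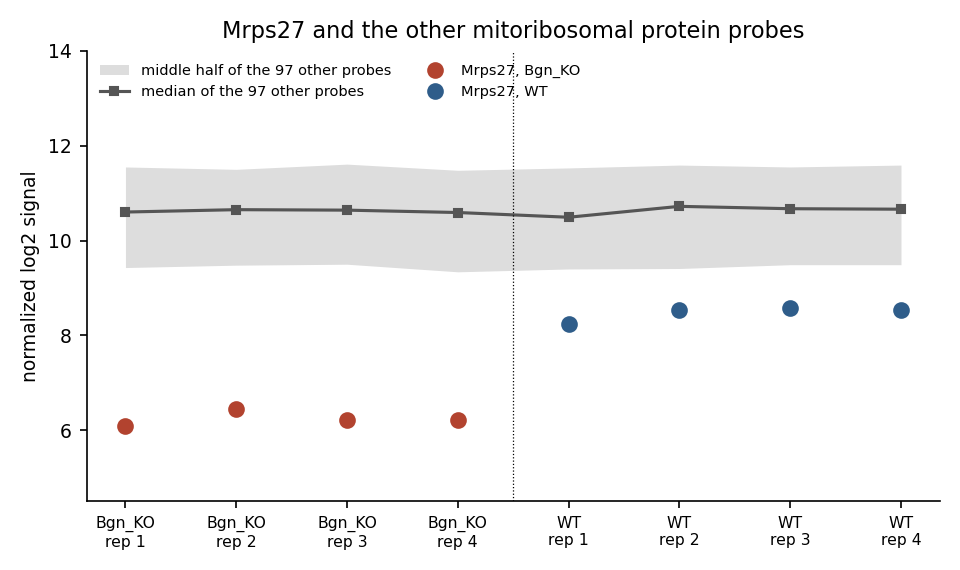
Normalized log2 signal (vertical axis) on the 4 Bgn_KO arrays (left) and the 4 WT arrays (right). Circles are Mrps27, squares the median of the 97 other mitoribosomal protein probes and the grey band their interquartile range. Mrps27 was between 6.10 and 6.44 on the Bgn_KO arrays and between 8.23 and 8.58 on the WT arrays, while the median of the others was between 10.49 and 10.72 on all arrays. Signals of different probes are not comparable as levels of RNA, so only changes across arrays can be read from the plot.

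The promoter of Mrps27 is shown with that of Mrps30, another member on chromosome 13, because the first gene differed between the genotypes and the second did not pass the test. Many genes of the mitochondrial ribosome have promoters with sites for ETS factors such as GABP, for NRF1 and for YY1, which are known as regulators of nuclear genes for mitochondria. Windows from 250 bases before to 50 after each start, from RefSeq on GRCm38.p6, were searched on both strands for CCGGAAG (ETS), AAGATGGCG (YY1) and the palindromic core of the NRF1 site. The motifs found in the Mrps27 window do not overlap. The 250 bases before the start are printed 5′ to 3′, with motif letters in capitals.
Mrps27, chr13:99344536-99344785, plus strand: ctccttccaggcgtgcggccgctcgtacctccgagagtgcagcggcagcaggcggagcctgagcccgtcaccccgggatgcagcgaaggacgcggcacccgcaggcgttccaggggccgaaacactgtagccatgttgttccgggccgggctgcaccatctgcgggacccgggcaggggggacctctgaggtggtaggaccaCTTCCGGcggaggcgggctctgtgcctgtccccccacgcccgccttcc
Mrps30, chr13:118387253-118387502, minus strand: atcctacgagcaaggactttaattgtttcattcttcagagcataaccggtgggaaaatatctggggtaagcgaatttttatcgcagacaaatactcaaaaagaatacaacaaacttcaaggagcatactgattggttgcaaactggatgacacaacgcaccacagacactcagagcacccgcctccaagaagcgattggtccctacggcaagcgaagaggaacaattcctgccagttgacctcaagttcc
The Mrps27 window holds the ETS motif on the other strand, at -48 to -42 from the start, and the YY1 motif at bases 15 to 23 after it, and 70.3% of its bases are G or C. None of the 3 motifs was found in the Mrps30 window (49.3% G or C). Mrpl36, the other member on chromosome 13 and likewise not past the test, has the YY1 motif on the other strand at -31 to -23 (49.7% G or C). The windows are reference sequence and not that of these mice, and a part of the motifs in the Mrps27 difference was not tested.

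Of the 71 member genes 63 had a promoter entry. The ETS motif was in the windows of 25 of them (39.7%), the YY1 motif in 8 (12.7%) and the NRF1 motif in 2 (3.17%). Among the 7946 genes with a tested probe and a promoter entry these shares were 18.9%, 3.40% and 2.14%, and among all 27025 genes with a promoter entry they were 9.93%, 1.64% and 1.07%. A gene counts where any of its windows holds the motif. Mrps27 was among 2 members with motifs of 2 kinds, the other being Mrps18a, which was at 11.32 in Bgn_KO and 11.38 in WT (log2 difference -0.06, limma adjusted p = 0.871). A match describes the letters in a window and says nothing on binding.

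Set against Mrps27, the other 97 probes differed little between the genotypes. Of these 36 were higher and 61 lower in Bgn_KO, and 0 passed 0.05 in limma (6 at an unadjusted p under 0.05, the smallest adjusted p being 0.316). With Mrps27, 1 of 98 probes passed, beside 0.507% of all 14190 tested probes, and it was lower, as were 0.282% of all. Their differences ran from -0.37 to 0.23, so that of Mrps27 was 6.07 times as large on the log2 scale as the next. This ratio was 3.83 without background correction, 3.94 in the authors' processed values and 3.54 without both replicates 4. For all 97 the 95% interval of the difference lay within 1 on the log2 scale, that is within a 2-fold change in either direction, and for 85 it lay within 0.5. The widest intervals reached -0.75 and 0.73, which leaves small changes undetermined. Relative to the median of the other members on the same array, Mrps27 was at -4.51, -4.21, -4.43 and -4.38 on the Bgn_KO arrays, against -2.27, -2.18, -2.09 and -2.13 on the WT arrays. That median was between 10.49 and 10.72 on all arrays, which were already quantile normalized, so this scale is not a separate check.

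**Figure D2:**
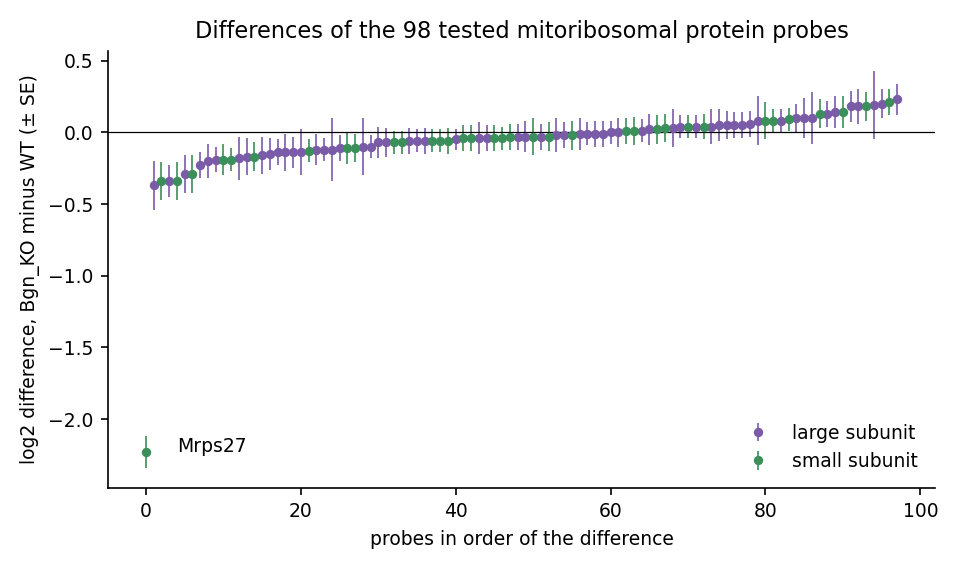
Log2 difference, Bgn_KO minus WT, of each of the 98 tested probes in rising order (horizontal axis), with the standard error as bars; purple marks the large and green the small subunit. Mrps27 is at -2.23, and the other 97 probes lie between -0.37 and 0.23.

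The shared shift of the members was small. It stayed below 0 with any 1 array left out (medians of -0.05 to -0.01), but not without both replicates 4. The median log2 difference over the 98 probes was -0.03, beside 0.01 over all tested probes, 62 of 98 (63.3%) were below 0, beside 47.2% of all, and 36 (36.7%) above, beside 52.8% of all. Scaling each array to its median instead gave 81 of 98 below 0 (82.7%) and a median of -0.10, with -0.05 over all probes. The other processing alternatives, with all 8 arrays, gave medians of -0.03 to -0.02. Without both replicates 4 the split was 51 higher and 47 lower, and the median was 0.01. The typical member probe was bright (median log2 signal 10.60, beside 8.37 over all tested probes) and varied little within a genotype, with a median standard deviation of 0.12, beside 0.19 over all. Unadjusted p-values under 0.05 were found for 7 of the 98 probes (7.14%), beside 10.2% of all tested probes. Of these 6 were lower, beside 4.94% of all, and 1 higher, beside 5.21% of all.

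**Figure D3:**
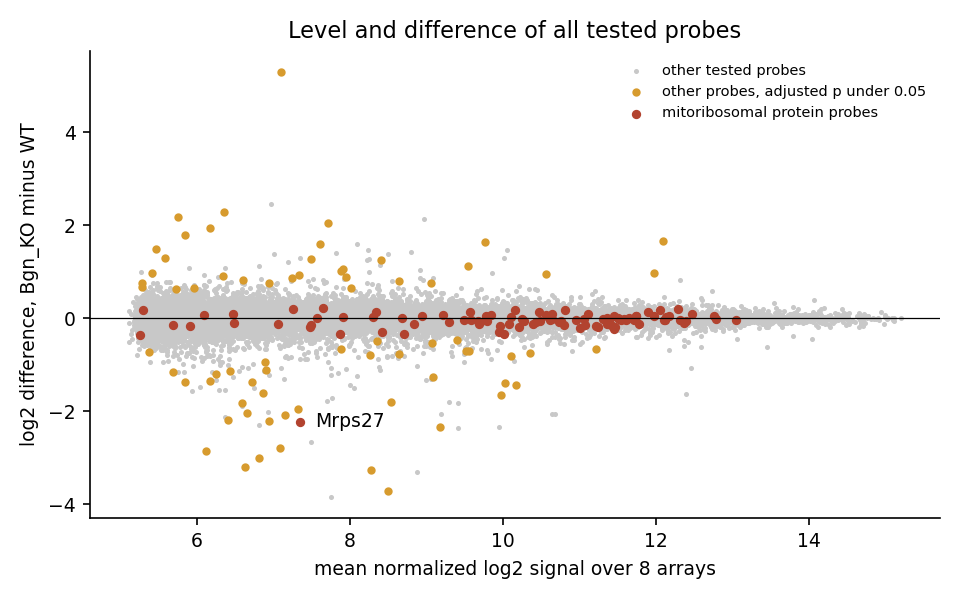
Mean normalized log2 signal over the 8 arrays (horizontal axis) against the log2 difference, Bgn_KO minus WT (vertical axis), for all 14190 tested probes. Red points are the 98 mitoribosomal protein probes and orange points other probes with limma adjusted p under 0.05. Apart from Mrps27 at -2.23, the red points lie between -0.37 and 0.23.

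The genotypes did not overlap for 8 of the 98 probes (8.16%, beside 6.15% of all tested probes), 7 lower (2.95% of all) and 1 higher (3.2% of all). Besides Mrps27 these were probes of Mrpl13, Mrpl24, Mrpl48, Mrpl54 and both probes of Mrps7, all lower in Bgn_KO, and of Mrpl50, higher. None but Mrps27 passed the test.

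Proteins of the small subunit other than Mrps27 were represented by 24 genes, taking for each gene the probe with the highest mean signal. Of these 9 were higher and 15 lower (62.5%, median -0.04), and 0 passed in limma (4 at an unadjusted p under 0.05, 16.7%). Over all 9782 genes tested, with 1 probe each, 48.1% were lower, 9.75% had an unadjusted p under 0.05 and 49 passed. Mrps7, which binds ribosomal RNA in the head of the subunit, read 11.35, 11.48, 11.32 and 11.33 on the Bgn_KO arrays, against 11.53, 11.58, 11.55 and 11.60 on the WT arrays (-0.19, limma adjusted p = 0.450). The groups were apart without overlap, by a small step, and its second probe also lay lower without overlap (-0.13, limma adjusted p = 0.599). Mrps35, a mitochondria-specific protein, read 9.65, 9.82, 10.07 and 9.87 in Bgn_KO, against 10.28, 9.96, 10.11 and 10.39 in WT (-0.34, limma adjusted p = 0.406). Mrps15, a counterpart of a bacterial protein, read 8.23, 8.54, 8.62 and 8.76 in Bgn_KO, against 9.07, 8.79, 8.94 and 8.73 in WT (-0.34, limma adjusted p = 0.407). In both genes the ranges of the genotypes overlapped.

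Mrps17, also a counterpart of a bacterial protein, had the smallest p among members with a positive difference. It read 12.44, 12.36, 12.40 and 12.40 on the Bgn_KO arrays, against 12.11, 12.12, 12.38 and 12.14 on the WT arrays (0.21, limma adjusted p = 0.475). Only WT replicate 3 reached into the Bgn_KO range. A probe of Mrps26, a mitochondria-specific protein, had a difference of 0.18 (ILMN_3005827, limma adjusted p = 0.569), and the brighter probe of the gene one of 0.04. The brightest small subunit probes differed by at most 0.09 in size. Mrps33 was at 13.03 in Bgn_KO and 13.07 in WT, and Mrps12, which lies at the decoding centre, at 12.77 in Bgn_KO and 12.79 in WT. Mrps24 was at 12.78 in Bgn_KO and 12.73 in WT, and Mrps34 at 12.52 in Bgn_KO and 12.43 in WT, with limma adjusted p between 0.734 and 0.964.

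The large subunit was represented by 46 genes, 2 of them with Mrps symbols: Mrps30 and Mrps18a were first named as small subunit proteins and were later placed in the large subunit. Of the 46 genes 16 were higher and 30 lower (65.2%, beside 48.1% of all genes, median -0.02), and 0 passed in limma. An unadjusted p under 0.05 was found for 0 of these probes, beside 9.75% over all genes. Among all 62 probes of the subunit it was found for 2 (3.23%, beside 10.2% of all tested probes). The probe with the smallest p was the dimmer of 2 probes of Mrpl13, a counterpart of a bacterial protein. ILMN_2982200 read 7.76, 7.43, 7.75 and 7.91 on the Bgn_KO arrays, against 8.10, 8.02, 7.98 and 8.10 on the WT arrays (-0.34, SE 0.11, limma adjusted p = 0.316). Its groups did not overlap, but the brighter probe ILMN_2982192, at 12.38 in Bgn_KO and 12.42 in WT, differed by -0.05 (limma adjusted p = 0.882).

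A probe of Mrpl48, a mitochondria-specific protein, was likewise apart without overlap. ILMN_1236131 read 11.19, 11.38, 11.38 and 11.41 in Bgn_KO, against 11.64, 11.46, 11.59 and 11.61 in WT (-0.23, limma adjusted p = 0.407), while the other probes of the gene differed by -0.04 and -0.01. Mrpl9 differed by -0.29 (limma adjusted p = 0.497) with overlapping groups. Mrpl24, whose bacterial counterpart acts early in assembly of the large subunit, was at 10.11 in Bgn_KO and 10.30 in WT (-0.19, limma adjusted p = 0.521). In the other direction Mrpl57 had a difference of 0.23, Mrpl35 of 0.20, Mrpl38 of 0.18 and Mrpl50 of 0.13. A probe of Mrpl3, which reaches towards the catalytic centre, differed by 0.18 and its dimmer probe by 0.06. A probe of Mrpl43 differed by 0.14 and its brighter probe by -0.01. For the differences from 0.13 to 0.23 limma adjusted p was between 0.554 and 0.705. Mrpl50 read 12.08, 11.89, 11.99 and 11.89 on the Bgn_KO arrays, against 11.85, 11.72, 11.85 and 11.89 on the WT arrays, so its groups met at 11.89 as rounded. Among proteins of the stalk that recruits translation factors, Mrpl12 was at 11.65 in both genotypes, and the probes of Mrpl10 differed by 0.05 and 0.04.

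The dimmest members carry the least information. The Mrpl15 probe (ILMN_1239507) was above background on 1 Bgn_KO and 3 WT arrays, just enough to be tested, and read 5.08, 4.94, 4.93 and 5.38 in Bgn_KO, against 5.64, 5.51, 5.66 and 4.98 in WT (-0.37, limma adjusted p = 0.512). The Mrpl15 difference was -0.08 without background correction, -0.09 in the authors' processed values and -0.62 without both replicates 4 (limma adjusted p = 0.0875). A second probe of Mrpl18 (ILMN_2823250) lay just outside the limit, above background on 0 Bgn_KO and 3 WT arrays, at 4.99 to 5.29 in Bgn_KO and 5.02 to 5.71 in WT. The first probe of Mrpl18 was bright and differed by -0.07. A probe of Mrpl1, a protein of the stalk at the tRNA exit side, was above background on 2 arrays of each genotype and differed by 0.19 (SE 0.24). Of the 12 member probes that were not tested 11 were above background on 0 arrays. The 5 genes with no tested probe were Mrpl19, Mrpl21, Mrpl32, Mrps14 and Mrps36, of which the last is now known as a subunit of the oxoglutarate dehydrogenase complex and not of the ribosome.

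The members were also divided by descent. Of 40 genes with a counterpart 13 were higher and 27 lower (median -0.03, range -0.37 to 0.21), and of 26 without one, Mrps27 left out, 11 were higher and 15 lower (median -0.01, range -0.34 to 0.23). As shares, 32.5% and 42.3% were higher, beside 51.9% of all 9782 genes tested, and the difference between these classes was not tested. A further 4 genes, Mrpl55, Mrps18a, Mrps18b and Mrps28, were not classed.

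For 20 genes the array had 2 or more tested probes, 47 in all, and these show how closely separate probes of 1 gene follow each other. The probes of Mrpl1 and of Mrps33 were annotated to more than 1 transcript. In 10 genes all probes had differences of 1 sign and in the other 10 the signs were mixed. The spread between the lowest and the highest difference of a gene had a median of 0.13 and was at most 0.37, for the 3 probes of Mrps25 (-0.29, -0.11 and 0.08). The 3 probes of Mrps31 differed by -0.04, -0.03 and -0.03, and those of Mrpl49 by between -0.18 and 0.02. Mrps27, with 1 probe, has no such check. The sequence of its probe was not available here. Whether the probe reads all transcripts of the gene, or covers a site that varies between the mice, was therefore not tested.

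Member genes lay on 17 chromosomes, and Mrps27, Mrps30 and Mrpl36 shared chromosome 13. Mrps30 read 11.25, 11.35, 11.28 and 11.35 on the Bgn_KO arrays, against 11.35, 11.31, 11.44 and 11.58 on the WT arrays (-0.11, limma adjusted p = 0.712). Mrpl36, a very small zinc-binding protein, was at 11.76 in Bgn_KO and 11.72 in WT (0.04, limma adjusted p = 0.902). Neither passed the test, and their groups overlapped.

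Among the measured neighbours of Mrps27, 0 probes passed the test. Within 5 Mb on either side, by the order of genes on GRCm38.p6, 29 genes were tested with 46 probes, with differences between -0.61 and 0.51. In limma 0 passed, beside 0.507% of all tested probes, and at that share a set of 46 probes would mostly hold none. An unadjusted p under 0.05 was found for 6 (13%, beside 10.2% of all). The groups did not overlap for 4 (8.7%, beside 6.15% of all). On one side the nearest tested genes were Fcho2 (-0.06), Btf3 (0.00), Utp15 (-0.27) and Enc1 (0.32). On the other they were Map1b, Cartpt, Serf1 (-0.08) and Smn1 (0.11), and the Cartpt probes differed by -0.12 and -0.15. The first of these, Map1b, encodes a microtubule-associated protein of neurons, and its 4 probes differed by 0.51, 0.51, 0.27 and 0.26. The Map1b probe ILMN_2750248 read 8.07, 8.12, 8.20 and 7.87 on the Bgn_KO arrays, against 7.73, 7.64, 7.43 and 7.43 on the WT arrays (limma adjusted p = 0.117). For 3 of the 4 probes the groups did not overlap, and none passed, though with array weights this probe did (0.59, limma adjusted p = 0.0339). The lowest neighbour was a probe of Taf9 (-0.61, limma adjusted p = 0.475). Farther away on chromosome 13, 7 of 407 tested probes passed (1.72%, beside 0.507% of all), 5 lower and 2 higher. They belonged to Fastkd3, Cdk20, Ntrk2, Zfp367 and Tpmt, named here after their values were seen. All of these genes lay before Mrps27 in chromosomal order, with at least 63 tested genes between each of them and Mrps27. The Ntrk2 probes that passed went opposite ways (-2.86 and 1.12), and the other higher probe was that of Tpmt (1.94).

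**Figure D4:**
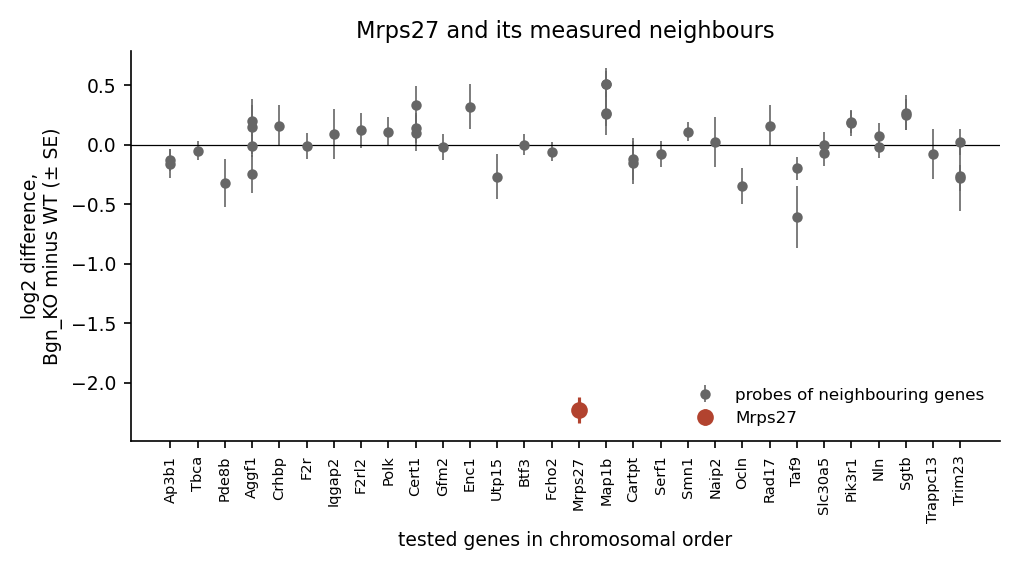
Log2 difference, Bgn_KO minus WT, with its standard error (vertical axis) for Mrps27 (red) and the 46 tested probes of its 29 measured neighbours (grey), in chromosomal order (horizontal axis, not to distance). Mrps27 is at -2.23 and the neighbours lie between -0.61 and 0.51.

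Other genes that serve mitochondrial protein synthesis were followed in 5 lists, with 1 probe per gene for the counts. Over all 9782 genes tested, 51.9% were higher, 9.75% had an unadjusted p under 0.05 and 49 passed. Of 5 mitoribosomal proteins and partners without an Mrp symbol 2 were higher and 3 lower (median -0.02), and 0 passed in limma (0 at an unadjusted p under 0.05). The GTP-binding small subunit protein Dap3 had probe differences between 0.02 and 0.18, Gadd45gip1 differed by -0.31 and Chchd1 by -0.07, with limma adjusted p of at least 0.507. Of 24 genes of ribosome assembly and rRNA processing 15 were higher (62.5%) and 9 lower (median 0.03), with 3 at an unadjusted p under 0.05 (12.5%). Fastkd3, one of a family of proteins that act on mitochondrial RNA, was the only gene of the 5 lists to pass in these values. It read 5.69, 5.78, 5.57 and 5.73 on the Bgn_KO arrays, against 8.58, 7.73, 8.85 and 8.78 on the WT arrays, and fell by 2.80 on the log2 scale (SE 0.22, limma adjusted p = 5.30e-04). Each Bgn_KO array was over 1 unit below each WT array, as for Mrps27. Its difference was -1.29 without background correction and -1.31 in the authors' processed values, and it passed in each alternative that kept the probe. In the same list the RNA helicase Dhx30 differed by 0.19 (limma adjusted p = 0.448) and 1 probe of the methyltransferase-like Mettl17 by 0.37 (limma adjusted p = 0.279), with its other probe at 0.17.

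Mitochondrial aminoacyl-tRNA synthetases, which load amino acids onto tRNAs, were counted together with tRNA amidation enzymes. Of these 15 genes 12 were higher (80%, beside 51.9% of all 9782 genes tested). Their median was 0.12, beside 0.01 over all genes, and 0 passed in limma. An unadjusted p under 0.05 was found for 3 (20%, beside 9.75% of all genes). Wars2, the synthetase for tryptophan, read 8.28, 8.09, 7.61 and 8.04 on the Bgn_KO arrays, against 7.04, 6.91, 7.02 and 5.82 on the WT arrays (1.31, SE 0.27, limma adjusted p = 0.107). The groups did not overlap, and WT replicate 4 was the lowest. With no background correction Wars2 passed (0.63, limma adjusted p = 0.0306), as it did in the values the authors processed (0.64, limma adjusted p = 0.0311). The brightest probe of Gatb differed by 0.33 (limma adjusted p = 0.407), and its other probes by 0.18, 0.07 and -0.18. Iars2 differed by 0.20 (limma adjusted p = 0.489). The leucine enzyme Lars2, named after its values were seen, was uneven: 8.92, 7.80, 7.78 and 5.41 on the Bgn_KO arrays, against 8.88, 8.81, 8.47 and 8.68 on the WT arrays (-1.23, SE 0.60, limma adjusted p = 0.542), and -0.54 without Bgn_KO replicate 4.

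Of 13 translation factors and mRNA-binding proteins 5 were higher (38.5%, beside 51.9% of all genes) and 8 lower (median -0.02). In limma 0 passed (1 at an unadjusted p under 0.05, 7.69%, beside 9.75% of all genes). Mtrf1l, which releases the finished chain at stop codons, read 7.97, 8.14, 8.22 and 8.08 on the Bgn_KO arrays, against 8.70, 8.46, 8.64 and 8.46 on the WT arrays (-0.46, SE 0.10, limma adjusted p = 0.107). Its groups did not overlap, with a step far smaller than that of Mrps27. Second probes of the RNA-binding protein Slirp and of the formyltransferase Mtfmt differed by -0.35 and 0.36 (limma adjusted p = 0.402 and 0.420), and the brightest probes of these genes by -0.06 and 0.19. Genes of mitochondrial DNA transcription and maintenance were higher for 8 of 12 (66.7%, beside 51.9% of all genes, median 0.05), again with 0 past the test. An unadjusted p under 0.05 was found for 3 (25%, beside 9.75% of all genes). The transcription factor Tfb2m differed by 0.26, the coactivator Ppargc1a by 0.38 and the helicase Twnk by 0.49, with limma adjusted p between 0.371 and 0.450.

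**Figure D5:**
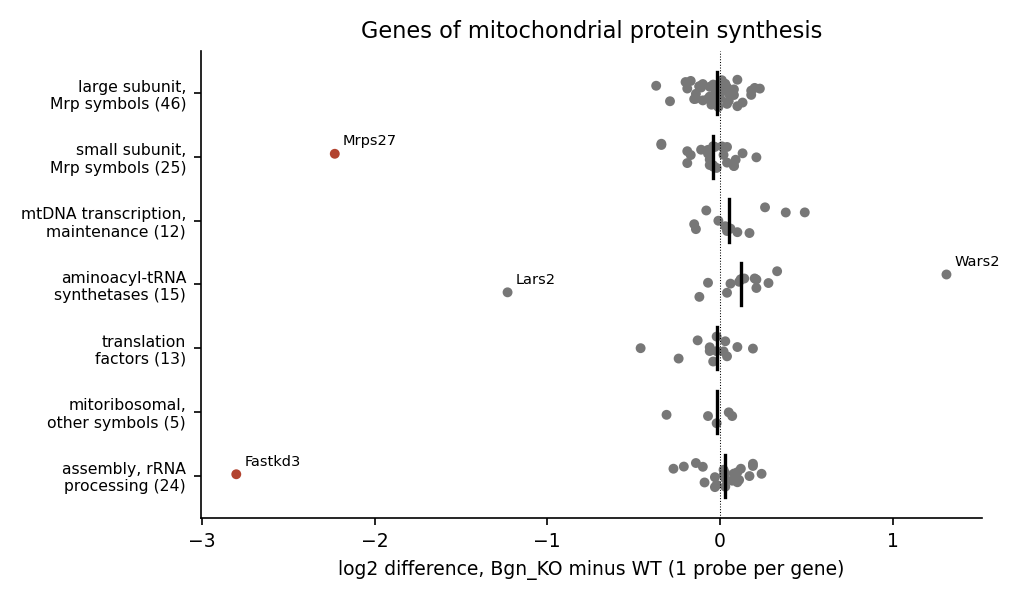
Log2 difference, Bgn_KO minus WT (horizontal axis), of the genes of the mitochondrial ribosome by subunit and of 5 lists of genes that serve mitochondrial gene expression, 1 point per gene with the number of genes beside each name. Black bars are medians, between -0.04 and 0.12, and red points have limma adjusted p under 0.05: Mrps27 at -2.23 and Fastkd3 at -2.80.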

How the data were processed

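The signal intensities were deposited without normalization, per the file headers, with a detection p-value that the authors deposited for each probe and array. The authors' processed values are intensities in linear units; lumi 2.10.0 and R 2.15.0 are named in the submitters' processing notes, but how the arrays were normalized there is not stated. The letter in each description tied a column to its sample.

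With limma 3.58.1 in R 4.3.3, normexp correction (offset 16) took the background level from detection p-values, arrays were quantile normalized and log2 values were fitted by linear models with moderated variances. Benjamini-Hochberg adjustment ran over all 14190 tested probes, with a threshold of 0.05. Bgn_KO was compared with WT without a block. The number of arrays limits the precision. Symbols come from the platform table, and all 110 member probes matched GRCm38.p6 genes by Entrez ID. The array files name no build.

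Members, lists and alternatives were chosen with earlier results of these data known. The named members were Mrps27, members past 0.05, the 8 smallest p above it in each direction and members on chromosome 13. They also took in genes with several probes and the 4 brightest and 4 dimmest probes. Values of single probes are printed for only some of the genes with several probes and of the dimmest probes. Values are also given for the 3 smallest p of each list and the 4 nearest neighbours on each side. Other members are named after their values were seen. Alternatives covered background, scaling, the authors' values, filters, array weights, a replicate block and arrays left out. The fit was tested on simulated data.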

Additional observations from a re-analysis of the deposited data

Results flagged for a closer look

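For 124 groups of 4 arrays (62 probes of named members in each genotype) the highest or lowest array was compared with the others, and 4 stood apart by a gap of 0.84 to 0.89 of the range of the group (Dixon's test), which chance gives in about 1 in 20 groups. Mrps27 was at 8.23 on WT replicate 1, against 8.53 to 8.58 on the other WT arrays, which leaves that array far above the Bgn_KO arrays. Mrps17 was at 12.38 on WT replicate 3, against 12.11 to 12.14 on the other WT arrays. The Mrpl48 probe ILMN_1236131 was at 11.19 on Bgn_KO replicate 1, against 11.38 to 11.41 on the other Bgn_KO arrays. The Mrps7 probe ILMN_2981818 was at 11.48 on Bgn_KO replicate 2, against 11.32 to 11.35 on the other Bgn_KO arrays.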

How the results depend on the processing

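Mrps27 passed, and was the only member to pass, under all 16 alternatives run, with log2 differences from -2.31 to -1.11, and the count of members past 0.05 was 1 in each. The other named members kept their side of the threshold in all 972 comparisons of a probe with an alternative. The median of the members ranged from -0.10 to 0.01, and from -0.05 to -0.01 when 1 array was left out. The count over all tested probes, 72, was 47 among probes detected at 0.01 on all arrays, where fewer were tested, 116 with array weights, 26 with the replicate block and 42 without both replicates 4, and it ranged from 43 (without WT replicate 4; 44 without WT replicate 3) to 76 when 1 array was left out. The cause of these shifts was not tested. Samples with the same replicate number did not deviate together (correlations of -0.19 to 0.10 across probes, and only Bgn_KO replicate 4 was closest to its own number). This gave no sign of a pairing by number, but with 4 arrays per genotype it cannot exclude one. With the replicate block Mrps27 had a limma adjusted p of 0.00171. For other named genes, alternatives were added after seeing the data: Wars2 and a probe of Map1b passed under some of them, as given with their values. Near background, as for Mrpl15, the arrays limit what can be seen.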
